A study of Rattus norvegicus with 4 samples.

Results

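This account covers the 6 genes that encode the fast and slow subunits of skeletal muscle troponin in rats. The genes were chosen by name, as fast Tnnt3, Tnni2 and Tnnc2 and slow Tnnt1, Tnni1 and Tnnc1. They are 6 of 26624 genes or unnamed accessions on the array, and all 6 were among the 13324 tested. They have 7 probes, of which Tnnt1 has 2 and each other gene 1. Where a gene has several probes, the one with the highest mean was used. Whether a probe also binds transcripts of another troponin gene was not tested.

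RNA from skeletal muscle of male rats aged 15 weeks was hybridised to 4 one-colour arrays. The groups were sedentary wild-type Wistar rats (2 arrays), an exercised SPORTS rat (1 array) and a sedentary SPORTS rat (1 array). SPORTS is a hyperactive mutant strain on a Wistar background. The wild-type arrays are called sedentary in the series' design text, not in their own labels, and no label names the muscle or the kind of exercise. The labels do not say that the 2 wild-type arrays came from separate animals, and their titles share their first number. The spread between these arrays may therefore be technical. The p-values below for a single SPORTS array against wild type reflect that spread, over all genes tested as well as the gene itself. The pooled comparison of both SPORTS arrays also takes in the gap between the exercised and the sedentary array. All 4 arrays lay on 1 slide.

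Troponin sits on the thin filament and makes contraction depend on calcium. Troponin C binds calcium, troponin I holds back the interaction of actin with myosin at rest, and troponin T ties the complex to tropomyosin. Fast (type II) and slow (type I) muscle fibres build the complex from different genes, so the balance of the 6 transcripts is widely used as a sign of fibre type. The slow troponin C gene is also the one used in heart, while troponins T and I have separate cardiac genes.

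Between 46.0% and 50.3% of 30015 probes were well above background on each array, by the scanner software's flag. The 75th percentile of the signal, by which each array was scaled, was 864 on the exercised SPORTS array and between 1082 and 1111 on the others. The exercised array stood apart: limma (moderated linear models, Benjamini-Hochberg adjusted p under 0.05) called 53.2% of the genes tested in exercised SPORTS against wild type and 6.25% in sedentary SPORTS against wild type. Of the skeletal muscle markers, all 4 with a probe (Acta1, Ckm, Des and Mb) were well above background on every array.

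All 6 troponin genes were well above background on all 4 arrays, and none was saturated. Their signals ran from 17751 to 437041, and the highest was 56.1% of the scanner's saturation value of 779440. On the wild-type arrays the members lay between 175538 and 382413. The brightest spike-in control had a median between 31544 and 35696, and 21 of the 24 member values lay above that of their own array, so the controls do not show whether the signal was still proportional to RNA at these levels. The scanner software's own error estimate was 10% of the signal for each of the 24 values. Precision is limited by having 4 arrays.

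**Figure D1:**
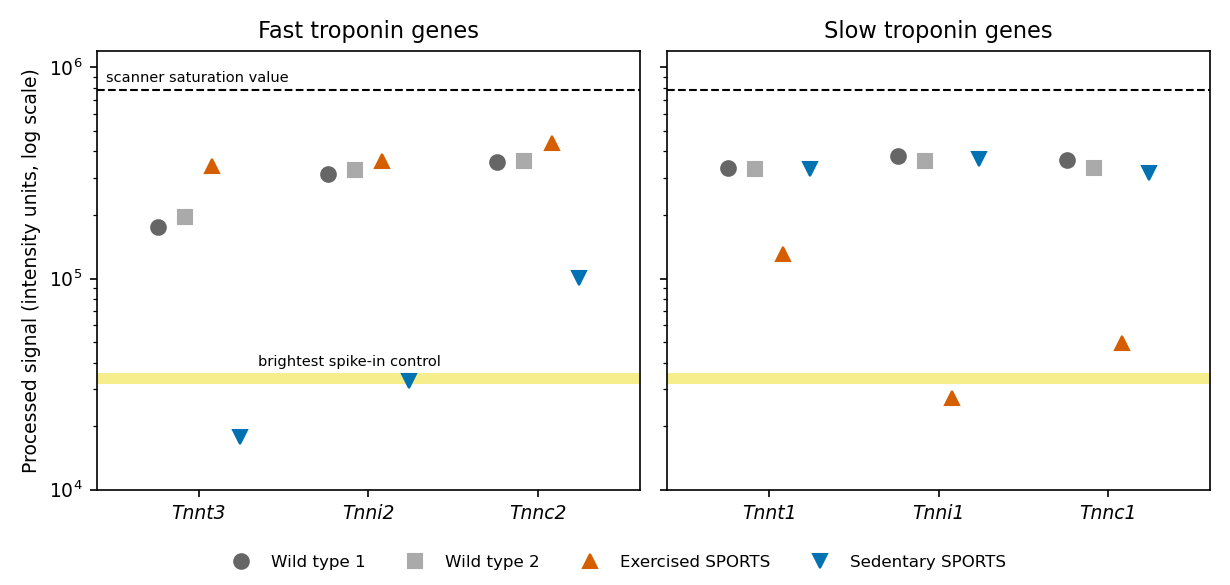
Processed signal (intensity, log scale) of the probe used for each fast (left) and slow (right) troponin gene on each of the 4 arrays; the dashed line is the scanner's saturation value of 779440 and the yellow band the brightest spike-in control, 31544 to 35696. The sedentary SPORTS array is lowest for the 3 fast genes and the exercised SPORTS array is lowest for the 3 slow genes.

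In sedentary SPORTS muscle against wild type, the fast troponin genes fell and the slow ones did not pass the test. This comparison was meant to set the genotypes side by side without exercise. All 3 fast genes fell, Tnnt3 to 10.68-fold below wild type, Tnni2 to 9.92-fold and Tnnc2 to 3.64-fold below. None of the 3 slow genes passed, and each lay within 0.17 of the wild-type mean on the log2 scale. So 3 of 6 members were called, all lower, where 3.43% of all genes tested were called lower.

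Tnnt3, the fast form of the tropomyosin-binding subunit, had signals of 175538 and 196540 on the wild-type arrays, 17751 on the sedentary SPORTS array and 342609 on the exercised one. The sedentary array lay below both wild-type arrays and the exercised array above both. After scaling, Tnnt3 fell by 3.42 ± 0.11 (standard error of the fit) on the log2 scale in sedentary SPORTS (adjusted p = 0.0323, limma). The wild-type arrays differed by 0.18, the widest gap among the 6 genes, none of which differed 2-fold between these arrays, as 1.13% of all genes tested did.

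Tnni2, the fast inhibitory subunit, had signals of 313146 and 325540 on the wild-type arrays, 32840 on the sedentary and 360761 on the exercised SPORTS array. The order of the arrays was the same as for Tnnt3. Tnni2 fell by 3.31 ± 0.07 in sedentary SPORTS (adjusted p = 0.0321, limma).

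Tnnc2, the fast calcium-binding subunit, had signals of 358158 and 361659 on the wild-type arrays, 100978 on the sedentary and 437041 on the exercised SPORTS array. It was the brightest probe of the exercised array, though a probe's brightness also depends on how well it binds. It fell by 1.86 ± 0.06 in sedentary SPORTS (adjusted p = 0.0323, limma). The 95% interval of that difference, -2.08 to -1.65, did not overlap the intervals of Tnnt3 (-3.79 to -3.04) or Tnni2 (-3.55 to -3.07), which overlapped each other.

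The wild-type pair gives the 3-group fit its only residual degree of freedom (1), and the single SPORTS arrays were assumed to vary as that pair does. With no filter on dim genes, where 26624 were tested, none of the 3 fast genes passed in sedentary SPORTS (adjusted p = 0.0755 for each), with the same differences.

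The promoters of the fast genes are shown because these genes moved together. The RefSeq promoter table (build GRCr8, 250 bases before to 50 after the start site) holds Tnni2 and Tnnc2 among the fast genes and Tnnt1 and Tnni1 among the slow, 4 of the 6 members. Tnnt3 and Tnnc1 were not matched. Tnni2 lies at chr1:207024240-207024539 on the plus strand and Tnnc2 at chr3:173935290-173935589 on the minus strand. Each is printed in the gene's direction, with capitals for CANNTG, the E-box read by myogenic factors, and for TATAAA, each on either strand.
Tnni2: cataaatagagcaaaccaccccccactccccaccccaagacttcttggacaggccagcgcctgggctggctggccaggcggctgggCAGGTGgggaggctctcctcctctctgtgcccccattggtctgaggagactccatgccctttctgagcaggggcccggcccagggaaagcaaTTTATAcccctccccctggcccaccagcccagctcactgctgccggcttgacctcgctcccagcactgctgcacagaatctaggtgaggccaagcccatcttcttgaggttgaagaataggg
Tnnc2: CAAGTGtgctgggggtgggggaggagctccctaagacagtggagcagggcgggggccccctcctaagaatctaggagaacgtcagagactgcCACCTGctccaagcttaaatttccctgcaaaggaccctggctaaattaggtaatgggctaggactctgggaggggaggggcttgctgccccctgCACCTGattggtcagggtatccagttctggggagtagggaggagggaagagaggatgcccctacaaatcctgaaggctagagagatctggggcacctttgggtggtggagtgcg

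The slow genes in sedentary SPORTS stayed close to wild type. Tnnt1, the slow tropomyosin-binding subunit, had signals of 334106 and 329655 on the wild-type arrays and 329177 on the sedentary SPORTS array. Its scaled difference was -0.04, with a 95% interval of -0.25 to 0.16 (adjusted p = 0.665, limma). Tnni1, the slow inhibitory subunit, had 382413 and 359646 on the wild-type arrays and 370055 on the sedentary array, where it was the brightest probe. Its difference was -0.03, with an interval of -0.27 to 0.20 (adjusted p = 0.771). Tnnc1, the slow and cardiac calcium-binding subunit, had 365091 and 332674 on the wild-type arrays and 316718 on the sedentary array. Its difference was -0.17, with an interval of -0.45 to 0.12 (adjusted p = 0.272). The sedentary array fell between the wild-type arrays for Tnni1 after scaling and just below both for Tnnc1 and, with the probe used, for Tnnt1.

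In exercised SPORTS muscle against wild type, the slow troponin genes fell and the fast ones rose. Tnni1 fell to 10.8-fold below wild type, Tnnc1 to 5.55-fold and Tnnt1 to 2.01-fold below. Tnnt3 rose to 2.32-fold above wild type, Tnnc2 to 1.53-fold and Tnni2 to 1.42-fold above. All 6 members were called, in a comparison that called 27.3% of all genes tested as higher and 26% as lower. This comparison and the one with sedentary SPORTS share the same wild-type arrays.

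Tnni1 had a signal of 27308 on the exercised array, below all 3 other arrays. It fell by 3.43 ± 0.07 on the log2 scale (adjusted p = 0.00425, limma). Tnnc1 had 49789, again below the others, and fell by 2.47 ± 0.09 (adjusted p = 0.00441). Tnnt1 had 131172 with the probe used and fell by 1.01 ± 0.06 (adjusted p = 0.00614). The 95% intervals of the 3 slow genes (-3.67 to -3.19 for Tnni1, -2.76 to -2.19 for Tnnc1 and -1.21 to -0.80 for Tnnt1) did not overlap. These intervals rest on the spread of the wild-type pair, which limma moderates over all genes tested, and leave out differences between probes. For Tnnt1, whose wild-type arrays differed by 0.0002, the ± of 0.06 comes mainly from the other genes. The dimmer Tnnt1 probe, described next, lay outside the interval of the probe used.

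The probes of Tnnt1 disagreed on the size of its fall. The dimmer probe had 257530 and 260870 on the wild-type arrays, 267885 for sedentary SPORTS and 57255 for exercised SPORTS. It gave -1.84 for exercised SPORTS against wild type, where the brighter probe gave -1.01, and 0.02 for sedentary SPORTS. Both probes placed the exercised array below the other 3.

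The fast genes, whose signals are given above, were highest on the exercised SPORTS array. Tnnt3 rose by 1.22 ± 0.11 (adjusted p = 0.0104, limma), Tnnc2 by 0.61 ± 0.06 (adjusted p = 0.0125) and Tnni2 by 0.51 ± 0.07 (adjusted p = 0.0209). With quantile normalization Tnnt3 still passed with 0.82, while Tnni2 (0.17, adjusted p = 0.161) and Tnnc2 (0.16, adjusted p = 0.184) did not. Tnni2 also lost its call with normexp background correction (0.22, adjusted p = 0.0999) and with no filter on dim genes (adjusted p = 0.0647).

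**Figure D2:**
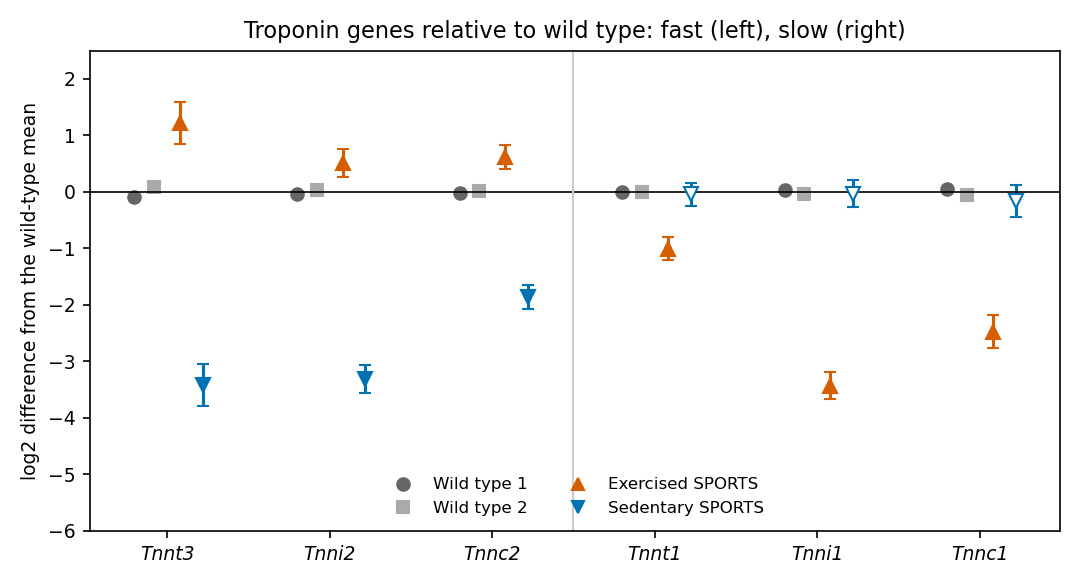
Scaled log2 difference of each troponin gene from the wild-type mean, for both wild-type arrays (grey), the exercised SPORTS array (orange, with the 95% interval of the fit) and the sedentary SPORTS array (blue, likewise); filled SPORTS symbols passed an adjusted p of 0.05 and open ones did not. In sedentary SPORTS the 3 fast genes lie between -3.42 and -1.86 and the slow genes near 0, and in exercised SPORTS the slow genes lie between -3.43 and -1.01.

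The promoters of 2 slow genes are shown for comparison with those of the fast genes. Tnnt1 lies at chr1:78348785-78349084 on the plus strand and Tnni1 at chr13:49781279-49781578 on the plus strand, with the same capitals.
Tnnt1: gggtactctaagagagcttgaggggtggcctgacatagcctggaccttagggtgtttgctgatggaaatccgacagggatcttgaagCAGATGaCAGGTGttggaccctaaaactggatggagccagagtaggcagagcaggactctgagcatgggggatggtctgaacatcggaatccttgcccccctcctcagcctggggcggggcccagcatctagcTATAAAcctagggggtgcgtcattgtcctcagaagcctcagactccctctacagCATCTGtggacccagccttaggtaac
Tnni1: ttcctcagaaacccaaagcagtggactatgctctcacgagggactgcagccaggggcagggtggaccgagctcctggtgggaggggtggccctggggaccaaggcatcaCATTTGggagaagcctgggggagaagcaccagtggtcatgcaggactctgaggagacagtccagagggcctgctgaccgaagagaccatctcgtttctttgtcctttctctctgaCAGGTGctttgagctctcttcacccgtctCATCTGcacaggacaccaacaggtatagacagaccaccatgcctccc

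All 4 promoters hold an E-box, 1 in Tnni2 and 3 in each of the others, as do 72.1% of 33469 promoters of that length. TATAAA was found in Tnnt1, from base -30 to base -25 counted from the start site, and on the other strand in Tnni2, and it is found in 14.2% of all promoters. The MCAT motif CATTCC (14.2% of all promoters), the MEF3 motif TCAGGTT (4.03%), the MEF2 motif (3.29%) and the CArG box (1.64%) had no match in these 4 windows on either strand. These matches are letters in a window and separate neither the fast from the slow genes nor a used from an unused site.

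Set directly against each other, the exercised and the sedentary SPORTS arrays were furthest apart for Tnnt3. With 1 array on each side there is no replicate check and no test. Tnnt3 was 24.8-fold higher on the exercised array, Tnni2 14.1-fold and Tnnc2 5.57-fold higher. Tnni1 was 10.5-fold higher on the sedentary array, Tnnc1 4.95-fold and Tnnt1 1.95-fold higher. So 3 of 6 members were at least 2-fold higher on the exercised array, where 9.11% of all genes tested were, and 2 of 6 at least 2-fold lower, where 12.8% were. The second count depends on the Tnnt1 probe used (-0.96 on the log2 scale), as its dimmer probe gave -1.86, beyond 2-fold.

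Taking each subunit's fast gene against its slow gene removes any factor that scales a whole array. The fast-to-slow log2 ratio of troponin T (Tnnt3 over Tnnt1) moved by -3.38 from the wild-type mean in sedentary SPORTS and by 2.22 in exercised SPORTS. For troponin I (Tnni2 over Tnni1) the shifts were -3.28 and 3.94, and for troponin C (Tnnc2 over Tnnc1) -1.70 and 3.09. The wild-type arrays differed by 0.18, 0.14 and 0.15 in these ratios. All 3 subunits thus shifted towards slow on the sedentary SPORTS array and towards fast on the exercised one, further than the wild-type arrays lay from each other. Between the SPORTS arrays the ratio differed by 7.22 for troponin I, 5.60 for troponin T and 4.78 for troponin C. In bulk muscle, fewer fibres of a type and less of its RNA per fibre cannot be told apart. No label names the muscle, and neither SPORTS group has a replicate array. The shifts could therefore not be separated from differences in the muscle, the part of it or the animal sampled. Whether the arrays differ in these was not tested.

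**Figure D3:**
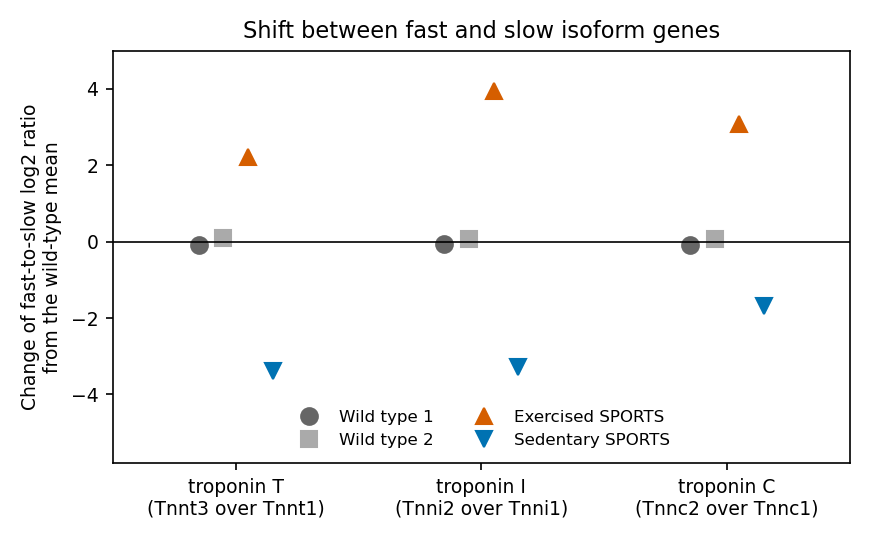
Change in the log2 ratio of the fast over the slow gene of each troponin subunit, from the mean of the wild-type arrays, on each of the 4 arrays. The wild-type arrays lie within 0.09 of their mean, the exercised SPORTS array between 2.22 and 3.94 and the sedentary SPORTS array between -3.38 and -1.70.

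With both SPORTS arrays pooled against both wild-type arrays, no troponin gene passed. The question here was which genes differ with genotype whatever the exercise. The exercised and the sedentary SPORTS array count as replicates in this fit, so the gap between them enters its ±. That gap, exercised minus sedentary, was 4.63 on the log2 scale for Tnnt3 and -3.40 for Tnni1. For genes so far apart this fit cannot answer the question. The pooled differences were -1.10 ± 1.77 for Tnnt3, -1.40 ± 1.46 for Tnni2, -0.62 ± 0.95 for Tnnc2, -0.52 ± 0.39 for Tnnt1, -1.73 ± 1.30 for Tnni1 and -1.32 ± 0.89 for Tnnc1. Unadjusted p ran from 0.223 to 0.573, and adjusted p from 0.772 to 0.846 (limma, n = 2 arrays per genotype). limma called 0 of all genes tested here, or 0%, with 981 at an unadjusted p under 0.05. The SPORTS arrays lay on opposite sides of wild type for the 3 fast genes. Both lay below both wild-type arrays for Tnnt1 and Tnnc1, as they did for 22.3% of all genes tested, and above both for no member, against 21.4% of all genes. For Tnnt1 this held with the probe used, while its dimmer probe had the sedentary SPORTS array between the wild-type arrays. Without the exercised array 3 members passed and without the sedentary array 6 did, which are the single-array comparisons above.

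The cardiac troponin genes Tnnt2 and Tnni3 are no members but are paralogs of Tnnt1 and Tnni1. Tnnt2, which encodes cardiac troponin T and is also made by immature skeletal muscle, had signals of 2769 and 2485 on the wild-type arrays, 13539 on the sedentary and 656 on the exercised SPORTS array. It rose by 2.34 ± 0.09 in sedentary SPORTS (adjusted p = 0.0325, limma), where 2.82% of all genes tested were called higher, and fell by 1.67 ± 0.09 in exercised SPORTS (adjusted p = 0.00559). Tnni3, encoding cardiac troponin I, had 388 and 485 on the wild-type arrays and 288 on the sedentary array, and was not well above background on the exercised array. It was at least 4.30-fold lower there than in wild type, the mean of the wild-type arrays against the lowest signal well above background on that array (adjusted p = 0.00478 for the measured values). In sedentary SPORTS it differed by -0.62 ± 0.19 (adjusted p = 0.138). Of the other heart markers, Nppa and Myl7 were not well above background on any array, while Myh6, the alpha myosin heavy chain gene, was on all 4. Myh6 had scaled log2 values of 8.33 on both wild-type arrays, 7.81 on the sedentary and 6.73 on the exercised SPORTS array, and fell by 1.60 in exercised SPORTS (adjusted p = 0.00447, limma). The slow myosin gene Myh7 had like levels. Its scaled log2 value was 8.36 on the first wild-type array and slightly higher on the second. It was 8.31 on the sedentary and 6.16 on the exercised SPORTS array. Whether the Myh6 probe also binds transcripts of Myh7 was not tested, so its signal may not measure Myh6 alone. The part of heart-type transcripts in the troponin differences was not tested.

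Troponin T and I genes lie next to each other in the genome as T and I pairs that do not always share a fibre type. In the RefSeq annotation no gene lies between Tnnt1 and Tnni3 on chromosome 1, 2 lie between Tnni2 and Tnnt3 on chromosome 1 (Lsp1 and Prr33), and 1 lies between Tnni1 and Tnnt2 on chromosome 13 (Lad1). The fast pair Tnnt3 and Tnni2 had like differences in sedentary SPORTS, -3.42 and -3.31. In the pair of Tnni1 and Tnnt2, the former differed by -0.03 and the latter by 2.34 in sedentary SPORTS, and both fell in exercised SPORTS. In the pair of Tnnt1 and Tnni3 both fell in exercised SPORTS.

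**Figure D4:**
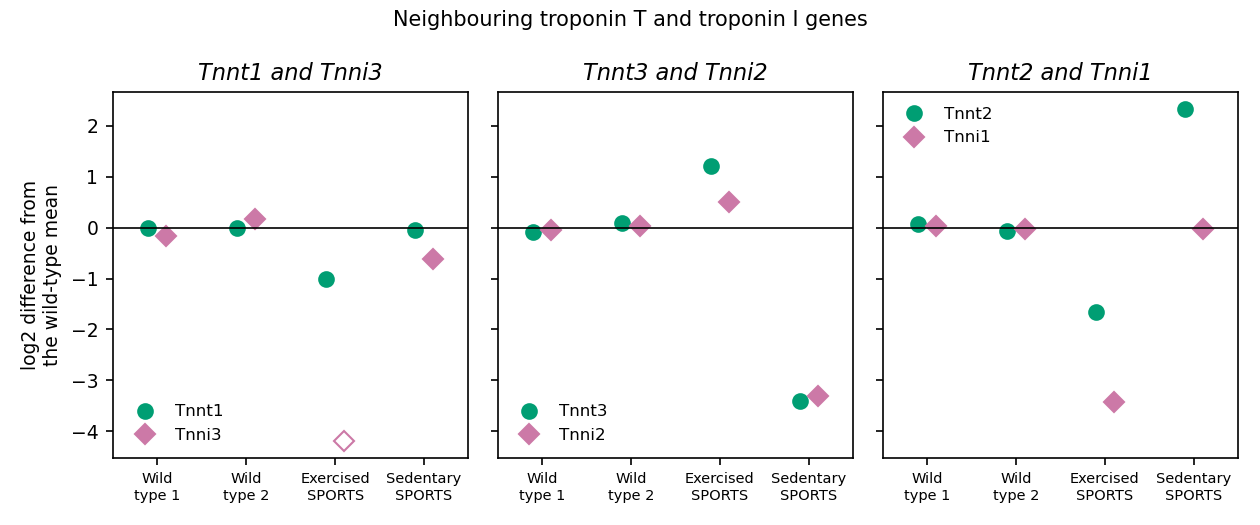
Scaled log2 difference from the wild-type mean on each array for 3 pairs of neighbouring troponin T (circles) and troponin I (diamonds) genes; the open symbol was not well above background. Tnnt3 and Tnni2 lie close on the wild-type and sedentary SPORTS arrays and apart on the exercised one (1.22 and 0.51), while Tnnt2 stands 2.34 above and Tnni1 0.03 below wild type on the sedentary SPORTS array.

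Other genes of the thin filament were counted next. Of 20 listed, 15 had a probe and were tested. In sedentary SPORTS 1 rose and 1 fell, where 2.82% of all genes tested rose and 3.43% fell, with a median of -0.14 against -0.01 over all genes. In exercised SPORTS 7 rose and 4 fell, where 27.3% of all genes rose and 26% fell, with a median of 0.13 against 0.0031 over all genes. The same shares over all genes stand behind each list count that follows. The lists here were chosen with earlier results of these data known, so their counts are a description.

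Tpm1, which encodes the tropomyosin of fast fibres among other forms, fell by 3.05 ± 0.18 in sedentary SPORTS (adjusted p = 0.0383, limma) and rose by 1.27 ± 0.18 in exercised SPORTS (adjusted p = 0.0215). A dimmer Tpm1 probe, well above background on all 4 arrays, gave 0.64 and 0.67, so the probes of this gene disagree in sedentary SPORTS. Tpm3, the slow fibre tropomyosin gene, rose by 1.097 ± 0.087 in sedentary SPORTS (adjusted p = 0.0412) and fell by 1.36 ± 0.09 in exercised SPORTS (adjusted p = 0.00643). Its dimmer probe, well above background on 3 arrays, gave -0.44 and -2.09. Tpm2, the beta tropomyosin gene, differed by -0.30 and 0.02 and passed in neither.

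Skeletal actin Acta1 differed by -0.11 ± 0.07 in sedentary SPORTS and rose by 0.33 ± 0.07 in exercised SPORTS (adjusted p = 0.0387). Cardiac actin Actc1, which muscle also makes while it forms, differed by 0.99 ± 0.11 in sedentary SPORTS (adjusted p = 0.0515) and fell by 2.21 ± 0.11 in exercised SPORTS (adjusted p = 0.00507). Tmod1, a tropomodulin gene that caps the pointed end of the filament, rose by 2.49 ± 0.07 in exercised SPORTS (adjusted p = 0.00425).

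**Figure D5:**
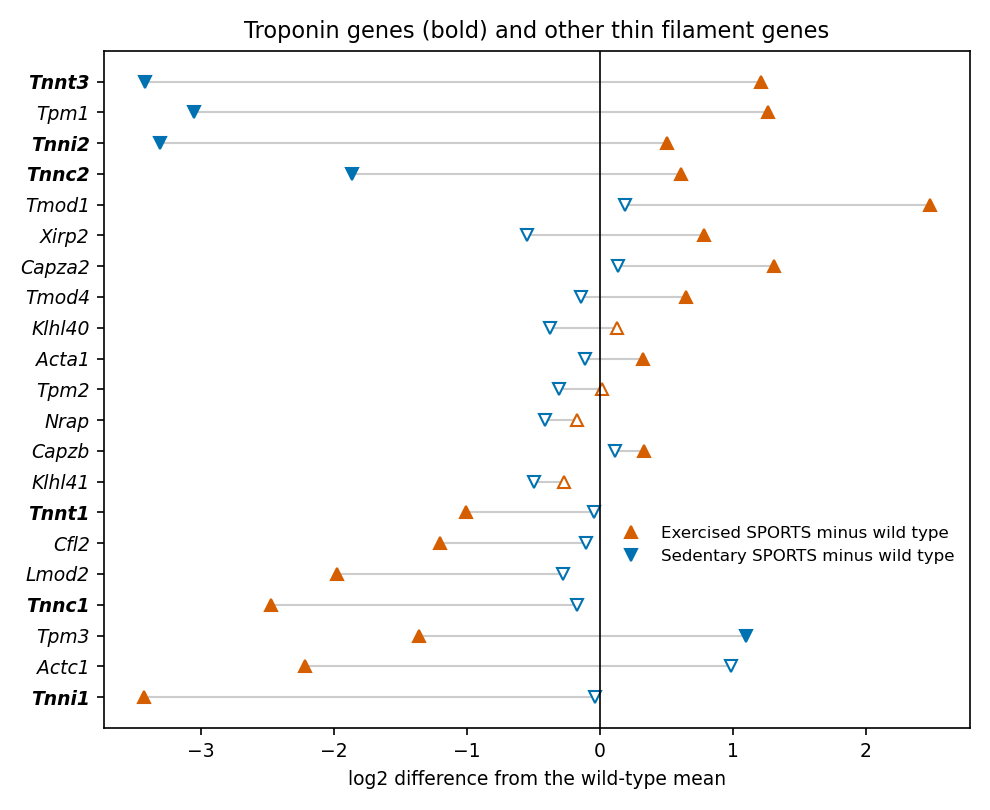
Scaled log2 difference from the wild-type mean for the 6 troponin genes (bold) and the other 15 thin filament genes with a probe, in exercised (orange) and sedentary (blue) SPORTS, ordered by the difference between the SPORTS arrays; filled symbols passed an adjusted p of 0.05. Tnnt3 and Tpm1 lie at the top of the order and Tnni1 at the bottom.

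Fast and slow fibre genes beside the troponins were set against the same arrays. Of 12 other fast fibre genes, 11 were tested. In sedentary SPORTS 5 fell and none rose (median -0.72), against 3.43% of all genes lower. In exercised SPORTS 9 rose and 1 fell (median 2.27), against 27.3% of all genes higher and 26% lower. All 11 were at least 2-fold higher on the exercised than on the sedentary SPORTS array, against 9.11% of all genes, from 1.01 for the fast calcium pump gene Atp2a1 and 1.03 for the light chain gene Myl1 to 7.65 for Actn3 and 11.19 for the IIb myosin gene Myh4, on the log2 scale. In exercised SPORTS against wild type Myh4 rose by 7.40 ± 0.21 and Actn3 by 6.82 ± 0.61, against 0.51 to 1.22 for the fast troponins. The wild-type arrays lay apart for Actn3, with scaled log2 values of 1.20 and 2.38. The listed fast gene that fell was the IIa myosin gene Myh2, with -0.43 in exercised and -3.64 in sedentary SPORTS. Myh4 had a scaled log2 value between 1.03 and 1.41 on the wild-type arrays and the fast troponins between 7.32 and 8.39.

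Of 14 other slow fibre genes, 12 were tested. In sedentary SPORTS 1 rose, the calcium pump regulator Pln, and none fell (median -0.07). In exercised SPORTS 9 fell and none rose (median -2.10), against 26% of all genes lower and 27.3% higher. The light chain gene Myl2 fell by 4.06 ± 0.07 and sarcolipin (Sln) by 5.43 ± 0.17, while Mb, encoding myoglobin, differed by -0.23 ± 0.07 and Csrp3 by 0.10 ± 0.09, neither of which passed.

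Transcription factors known to act on fibre-type genes were counted next. Of 26 listed, 21 had a probe and 18 were tested. In sedentary SPORTS 1 rose and 1 fell (median -0.12). Vgll2, a cofactor of TEAD factors, rose by 0.73 ± 0.06 and Myod1, a myogenic factor, fell by 1.04 ± 0.07 (adjusted p = 0.0448 and 0.0384, limma). In exercised SPORTS 9 rose and 4 fell (median 0.29), against 27.3% of all genes higher and 26% lower, so the count that fell is near the share over all genes. Sox6, which represses slow fibre genes, rose by 1.66 ± 0.09, Myod1 rose by 0.78 ± 0.07, Vgll2 fell by 1.004 ± 0.064 and Myog, a second myogenic factor, fell by 1.26 ± 0.06.

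Genes of developing or regenerating muscle were counted because Tnni1 and Tnnt2 are also made there. All 10 were tested. In sedentary SPORTS 1 rose and 2 fell (median -0.03), against 2.82% of all genes higher and 3.43% lower. In exercised SPORTS 3 rose and 7 fell (median -1.47), against 27.3% higher and 26% lower, so the count that rose is near the share over all genes. Chrng, the fetal subunit of the acetylcholine receptor, rose by 1.496 ± 0.106 in sedentary SPORTS (adjusted p = 0.0392) and was not well above background on the exercised array. The embryonic myosin gene Myh3 fell by 5.17 ± 0.06 in exercised SPORTS. The perinatal myosin gene Myh8 fell by 1.64 ± 0.08 in sedentary SPORTS and rose by 0.50 ± 0.08 in exercised SPORTS. Its scaled log2 values were 8.41 and 8.30 on the wild-type arrays, 6.72 on the sedentary and 8.86 on the exercised SPORTS array. Whether its probe also binds transcripts of other myosin genes was not tested. Ankrd1, a stretch-responsive gene, rose by 4.58 ± 0.06 in exercised SPORTS.

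By their values over the 4 arrays, each centred on its own mean, the genes nearest to Tnnt3 among 8475 others with a symbol were Tpm1 (Euclidean distance 0.32 on the log2 scale), Tnni2 (0.65) and Akr1b10 (0.69). Those nearest to Tnni2 were Akr1b10 (0.23), the water channel gene Aqp4 (0.38) and Tpm1 (0.65). For Tnnc2 they were Lgi3 (0.21), Myh8 (0.27) and the fast light chain gene Myl11 (0.27). For Tnnc1 they were Capn6 (0.086), the slow calcium pump gene Atp2a2 (0.090) and Slc25a34 (0.095). Tnni1 lay nearest to Endou, Ccdc8 and Igh-6l1 (0.12 to 0.18) and Tnnt1 to Tnfsf12, Ppfibp2 and Il10rb (0.034 to 0.038). Akr1b10 was not well above background on the sedentary and Endou on the exercised SPORTS array.

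Markers of other cells were counted on the same arrays, where 26% of all genes tested fell in exercised SPORTS and 3.43% in sedentary SPORTS. Of the tendon markers, 7 of 9 had a probe, and all 7 fell in exercised SPORTS and 4 in sedentary SPORTS. Their summed signal was 105705 and 96448 on the wild-type arrays, 53707 on the sedentary and 10585 on the exercised array, where Tnmd, Chad, Cilp2, Comp and Kera were not well above background. Of the macrophage markers, 4 of 5 were tested and all 4 fell in exercised SPORTS, with none called in sedentary SPORTS. The sum over all 5 was 2586 and 1725 on the wild-type arrays, 4496 on the sedentary and 547 on the exercised array. On the exercised array Csf1r, Adgre1 and Mrc1 were not well above background. Among 4 adipocyte markers tested 2 fell in exercised SPORTS, among 3 endothelial markers 1, and among 4 nerve and Schwann markers 1, with none called in sedentary SPORTS. The endothelial and nerve counts are near the share over all genes. Of 4 smooth muscle markers tested, 1 rose in sedentary SPORTS, and 2 rose and 1 fell in exercised SPORTS. Neither of 2 red blood cell markers passed in either comparison. The part of these cells in the troponin differences was not tested.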

How the data were processed

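Each array was scanned and quantified with Agilent Feature Extraction 10.7.1.1, per the submitters' processing notes. The deposited processed signal is an intensity from which background and a spatial trend were removed, array by array, per the file headers, and arrays were not scaled to each other. The deposited flags for saturation, outliers and signal well above background hold other values, 0 or 1. The authors' value table holds log2 values centred on each probe's median, and its differences between arrays followed those of the scanner values (r = 1 over 30015 probes).

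Control spots and outlier spots were left out (352 of 30367 probes dropped) and spots of a probe averaged. The log2 signals were scaled by subtracting each array's 75th percentile. Probes took their names from their RefSeq accession (gene table of build GRCr8), which gave 59.4% of them 1 symbol. A gene was tested if well above background on at least 2 of 4 arrays. limma 3.58.1 in R 4.3.3 fitted 3 groups, and separately SPORTS against wild type, with two-sided Benjamini-Hochberg adjusted p over all genes tested. The fits were also run on simulated data with the same noise for every gene and array. That run cannot check whether the single SPORTS arrays vary as the wild-type pair does. A ± is the standard error of the fit. The members, lists and tests were chosen with earlier results of these data known. The rule for naming genes took the 6 members, the 3 genes nearest to each, the cardiac troponin, tropomyosin and skeletal actin genes and, from each list, the 2 genes highest and the 2 lowest on the exercised against the sedentary SPORTS array. Atp2a2, Akr1b10 and other near genes are named under that rule. Markers, Myh6 among them, Pln and Myh2 were named to complete a count. Myh7 was named for comparison with Myh6. Alternatives covered scaling, background correction, the authors' log2 table, the filter and floor for dim genes, a variance trend, the probes of a gene and leaving out each array.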

Additional observations from a re-analysis of the deposited data

Results flagged for a closer look

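For 4 troponin genes the exercised and the sedentary SPORTS arrays lay on opposite sides of wild type. On the exercised array Tnni2 and Tnnc2 lay only 0.51 and 0.61 above wild type on the log2 scale, each less than 2-fold. Across the alternatives these differences ranged from 0.17 to 0.74 for Tnni2 and from 0.16 to 0.84 for Tnnc2. The exercised minus sedentary difference on the log2 scale was 4.63 for Tnnt3, 3.82 for Tnni2, 2.48 for Tnnc2 and -4.00 for the cardiac gene Tnnt2. With 1 array in each SPORTS group the difference between the groups was not tested.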

How the results depend on the processing

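With 4 arrays, and the spread of the 3-group fit taken from the wild-type pair, the fits say little about variation between SPORTS rats. No paired analysis was possible because only the wild-type group has more than 1 array. Without a wild-type array the 3-group fit has no residual degrees of freedom, so no count of calls could be given there. Scaling by the median moved the median of all genes tested in exercised SPORTS against wild type from 0.0031 to 0.23, and the members moved with it without a change of call. Under every scaling tried, each member called in sedentary or exercised SPORTS against wild type kept its direction.

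The number of troponin genes called in sedentary SPORTS against wild type was 3, except for 0 with no filter on dim genes. In SPORTS against wild type it was 0, and between 0 and 6 with an array left out. There the values with an array left out ranged from -3.42 to 1.22 for Tnnt3, from -3.31 to 0.51 for Tnni2 and from -1.86 to 0.61 for Tnnc2. Over all genes, 833 were called in sedentary SPORTS against wild type. A variance trend gave 2813, testing only genes bright on all 4 arrays gave 2169, normexp gave 1726 and flooring dim values gave 1413, while keeping every dim gene gave 0. The number of troponin genes called in exercised SPORTS against wild type ranged from 4 to 6.

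Alternatives that scale a whole array, the authors' table, the filters, the floor and the variance trend could not move the fast-to-slow log2 ratios. The ratios kept their direction under the alternatives that could move them. These were quantile normalization, normexp background correction, the mean of all probes and leaving out a wild-type array. With quantile normalization they were -3.69 for troponin T in sedentary SPORTS against wild type and 5.87 between the SPORTS arrays, 3.77 and -3.41 for troponin I in exercised and sedentary SPORTS against wild type, and 2.82 in exercised SPORTS against wild type and 4.61 between the SPORTS arrays for troponin C. With normexp background correction they were -3.57 and 5.81 for troponin T and -3.48 and 7.39 for troponin I, in sedentary SPORTS against wild type and between the SPORTS arrays, and -1.82 for troponin C in sedentary SPORTS against wild type. With the mean of the Tnnt1 probes, troponin T gave 2.64 in exercised SPORTS against wild type and 6.05 between the SPORTS arrays. The cause was not tested. The dimmer Tnnt1 probe was an alternative chosen after seeing the data.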
